A study of Arabidopsis thaliana with 6 samples.

Results

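WRKY factors are plant transcription factors named for a conserved run of amino acids in their DNA-binding domain, and most of them bind the W-box in the promoters of their target genes. They are best known for defence, where MAP kinases (signal-relaying protein kinases) phosphorylate some members, and for senescence. In seeds, several members are known to act with or against abscisic acid (ABA), which keeps seeds from germinating. The WRKY genes were read here as the 62 probe sets, of 22746 tested, whose title in the authors' deposited table calls them a WRKY family transcription factor. Membership rested on titles and on no measured value, though earlier results of these data were known when the members were chosen. A probe set is the group of short probes that measures 1 transcript, or a few similar ones, on the ATH1 array (Affymetrix). Of the 62, 9 could be given a gene or locus, 8 through the platform annotation and 1 through the title, and the other 53 are called by their probe set ID. A RefSeq table of the same species (assembly TAIR10.1) lists 72 protein-coding genes with a WRKY number. None of the 62 probe sets is of the types that share probes with similar sequences.

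Seeds of Arabidopsis thaliana were of 2 groups, wild type of the accession Columbia-0 (Col-0) and anac089-2, a mutant in that background of ANAC089, a membrane-anchored NAC transcription factor. All seeds of both groups had first been kept in water in the dark for 3 days at 4 °C, and then spent 3 h under light with 5 µM ABA at 22 °C. Since every sample was given ABA, these data hold no response to the hormone itself. Each group had 3 biological replicates with an array each. Whether these came from separate plants or harvests is not stated in the labels, and p-values measure the spread between these samples. The transcript of ANAC089, which could check the labels, was not analysed here because no probe set could be matched to it. Values are the authors' log2 expression levels after robust multi-array averaging (RMA), a method that corrects background, normalises arrays and sums up the probes of a probe set, and differences are anac089-2 minus wild type. Whole seeds were ground, so a lower value for a gene does not tell fewer cells expressing it apart from less RNA per cell.

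Array medians were 3.97 to 4.01 on 5 arrays and 3.80 on wild-type replicate 3. Of the markers of seed identity, CRA1, a 12S storage protein, stood at 13.6 in both groups and the oleosin gene OLEO3 at 9.08 in wild type and 8.86 in anac089-2. The measured markers of endosperm stayed near or below the median of all probe sets, 3.96. FIS2 stood at 2.98 and 2.78 and FWA at 2.74 and 2.94 in wild type and mutant. These values do not tell how much endosperm RNA the samples held. Of 2 measured markers of green leaf, RCA, the Rubisco activase, was higher in anac089-2 (0.99, limma adjusted p = 0.0215, passing in 2 of 6 fits with 1 array left out) and the light-harvesting gene LHCB3 had -0.03. Summed over these 2 markers the log2 levels were 8.53 to 9.54 in wild type and 10.02 to 10.17 in anac089-2, and the part of this in the WRKY results was not tested. No marker of endosperm (4 measured), seed coat (3) or embryo (4) passed the same test. The seed coat list holds TTG2, which is also 1 of the 62 WRKY probe sets. In these lists 3, 2 and 2 markers lay below the median of all probe sets, where only 0.246% of probe sets passed. For those markers the test could hardly show a difference. At an unadjusted p under 0.05 there were 0, 0 and 1, beside 19.3% of all probe sets. The 1 was PDF1, a gene of the outer cell layer, at 6.80 in wild type and 6.15 in anac089-2 (-0.65, adjusted p = 0.198). PDF1 passed after quantile normalization (adjusted p = 0.0322), after cyclic loess (0.0238) and without wild-type replicate 3 (0.0245). No marker of these 3 lists passed in the authors' deposited table either. Summed levels were 12.3 to 13.2 and 12.7 to 13.0 for endosperm, 9.72 to 10.4 and 9.91 to 10.4 for seed coat and 17.4 to 17.7 and 16.8 to 17.1 for embryo, in wild type and anac089-2. The embryo sums did not overlap between the groups, and their part in the WRKY results was not tested. For PDF1 alone the groups overlapped, with wild-type replicate 3 at 6.28 and mutant replicate 1 at 6.42. The log2 differences of the other embryo markers were 0.15 for LEC1, -0.08 for LEC2 and 0.0 for STM.

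Most WRKY probe sets gave little signal in these seeds. Their levels ran from 2.61 to 9.33 with a median of 3.32, and 41 of 62 lay below the median of all probe sets. A further 6 lay between that median and a log2 level of 6, and 15 had a level of 6 or more. A level on an array also reflects how well the probes bind, so these classes describe signal and do not rank the amounts of different transcripts.

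**Figure D1:**
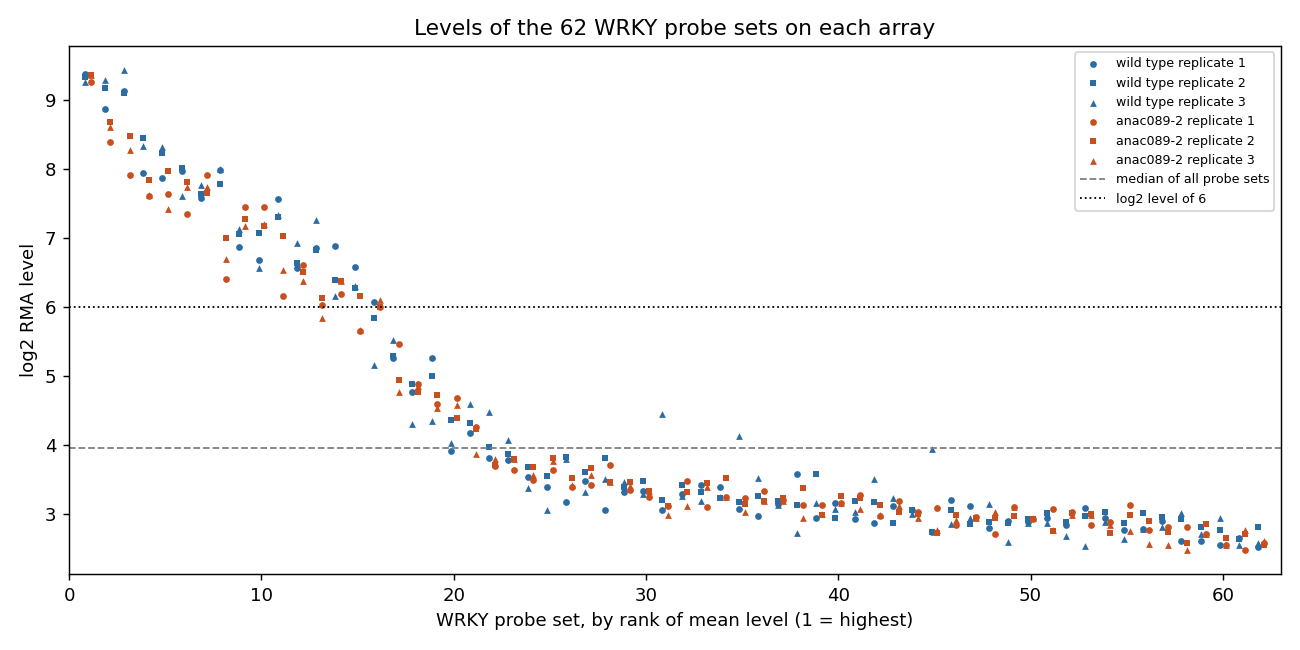
Log2 RMA level (vertical axis) of each of the 62 WRKY probe sets on each of 6 arrays, ordered by mean level over all arrays (horizontal axis). Blue points are wild type and orange points anac089-2, with circles, squares and triangles for replicates 1, 2 and 3. The 15 probe sets above the dotted line at 6 hold all those that passed the test, and single points of wild-type replicate 3 stand above the other arrays at ranks 31, 35 and 45.

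Among the 5 WRKY probe sets with the strongest signal, 1 was nearly constant. The probe set 245051_at read 9.38, 9.34 and 9.27 on the wild-type arrays and 9.27, 9.37 and 9.36 on the anac089-2 arrays, a difference of 0.00 (SE 0.092). The groups overlap fully there. The other 4, 253603_at, 253485_at, 265718_at and 262613_at, all had lower means in anac089-2, by 0.55, 0.99, 0.54 and 0.46 as log2 differences.

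Across the family, 3 probe sets fell in anac089-2 and none rose. They were 253535_at, 253485_at and WRKY6, and their falls were between 1.97-fold and 2.33-fold. Of all 22746 probe sets 4.92% passed the same test (limma adjusted p under 0.05), 1.98% lower and 2.94% higher, and 4.84% of the WRKY probe sets did. The share in either direction was thus near the background. At an unadjusted p under 0.05 there were 8 lower and 4 higher WRKY probe sets, which is 12.9% lower and 6.45% higher. Of all probe sets 19.3% did so in either direction, 6.12% lower and 13.2% higher. The authors' deposited table also held these 3 at a false discovery rate under 0.05, and no WRKY probe set that was higher.

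The largest fall was that of 253535_at, a WRKY probe set for which no source used here gives a gene. Its levels were 7.99, 7.78 and 8.00 in wild type and 6.41, 7.00 and 6.70 in anac089-2. The lowest wild-type array was thus well above the highest mutant array, and replicate 1 was the lowest of the mutant arrays. The means were 7.92 ± 0.124 and 6.70 ± 0.295 (SD, n = 3 each), a fall of 2.33-fold (log2 difference -1.22, SE 0.162, limma adjusted p = 0.0134).

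The second unnamed probe set, 253485_at, read 9.13, 9.10 and 9.44 in wild type and 7.92, 8.49 and 8.28 in anac089-2. Again the groups did not overlap and mutant replicate 1 was the lowest. Its mean went from 9.22 ± 0.188 to 8.23 ± 0.288 (SD, n = 3 each), a 1.99-fold fall (log2 difference -0.99, SE 0.170, limma adjusted p = 0.0241).

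WRKY6 (AT1G62300) is a group IIb factor known in senescence and phosphate supply, and in germinating seeds as a repressor of RAV1 in ABA signalling. Its levels were 6.86, 6.83 and 7.26 in wild type and 6.04, 6.13 and 5.84 in anac089-2. All 3 mutant arrays lay below all 3 wild-type arrays, and wild-type replicate 3 was the highest. The fall was 1.97-fold (log2 difference -0.98, SE 0.148, limma adjusted p = 0.0175), from 6.98 ± 0.240 to 6.00 ± 0.148 (SD, n = 3 each). RAV1 itself, an AP2 and B3 domain factor named here for that link after its values were seen, had levels of 3.03 in wild type and 3.00 in anac089-2, both below the median of all probe sets (log2 difference -0.04, adjusted p = 0.892).

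WRKY22 (AT4G01250), a group IIe factor placed downstream of MAP kinases in the response to bacterial flagellin, had the largest difference that did not pass. It read 7.57, 7.31 and 7.34 in wild type and 6.17, 7.04 and 6.54 in anac089-2. The groups did not overlap, but the mutant arrays spread over nearly a whole log2 unit, with replicate 1 lowest and replicate 2 highest. Means were 7.41 ± 0.142 and 6.58 ± 0.437 (SD, n = 3 each), with a log2 difference of -0.82 (SE 0.215, limma adjusted p = 0.0783). WRKY22 passed under 5 of 14 alternative settings, with adjusted p-values of 0.0357 to 0.0477, and leaving out 1 array in turn gave 0.0435 to 0.257.

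**Figure D2:**
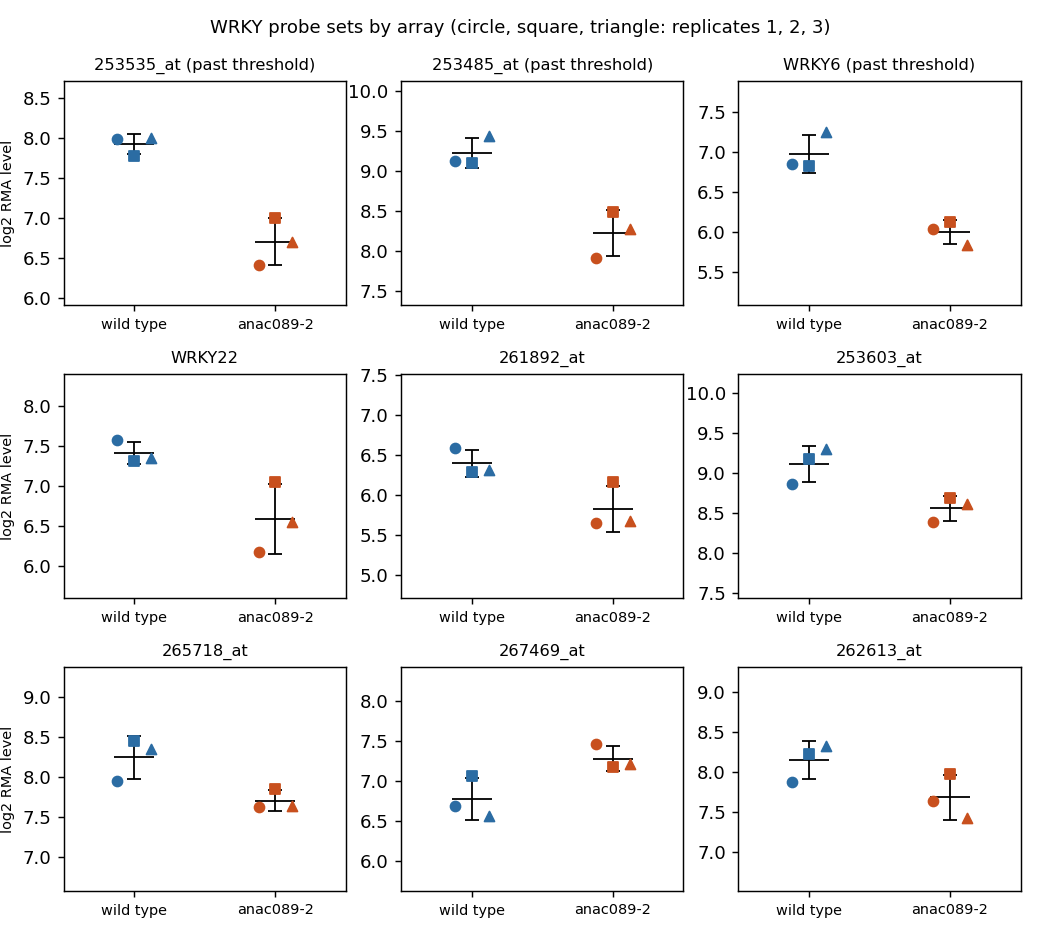
Log2 RMA level (vertical axes, each with the same span) of 9 WRKY probe sets in wild type (blue) and anac089-2 (orange). Circles, squares and triangles are replicates 1, 2 and 3, and bars are the mean and SD of 3 arrays. In the top row the lowest wild-type array lies above the highest mutant array in each of the 3 panels. The mutant replicates have the order 1, 3, 2 from low to high in 253535_at, 253485_at, WRKY22, 261892_at, 253603_at and 265718_at.

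Further probe sets of strong signal had lower means in anac089-2 without passing in the reported fit, though 3 of them passed under other settings. The probe set 253603_at read 8.87, 9.18 and 9.30 in wild type and 8.39, 8.69 and 8.61 in anac089-2 (log2 difference -0.55, SE 0.144, adjusted p = 0.0780). The probe set 265718_at read 7.94, 8.45 and 8.34 against 7.62, 7.85 and 7.63 (-0.54, SE 0.154, adjusted p = 0.1). In both the groups were apart, by 0.18 and 0.09 between the nearest arrays. The probe set 261892_at read 6.59, 6.28 and 6.31 against 5.65, 6.16 and 5.67 (-0.57, SE 0.167, adjusted p = 0.113). Its groups were also apart, by 0.12 between mutant replicate 2 and the nearest wild-type array. Array weights gave adjusted p-values of 0.0426 for 253603_at and 0.0465 for 265718_at, and an intensity trend with robust spread gave 0.0497 for 253603_at. For 261892_at they were 0.045 after quantile normalization and 0.0391 after cyclic loess. For 262613_at, with 7.88, 8.23 and 8.33 against 7.64, 7.98 and 7.43, the groups overlapped (-0.46, SE 0.178, adjusted p = 0.211), as they did for 248896_at of middle signal (-0.30, SE 0.188, adjusted p = 0.456).

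Higher means in anac089-2 were smaller and none passed. The probe set 267469_at had the largest, with 6.69, 7.07 and 6.57 in wild type and 7.46, 7.18 and 7.21 in anac089-2 (log2 difference 0.51, SE 0.155, adjusted p = 0.124). The probe set 254159_at read 3.92, 4.37 and 4.03 against 4.68, 4.39 and 4.58 (0.44, SE 0.146, adjusted p = 0.149). The groups were apart in both, though in 254159_at by only 0.02 between the nearest arrays. The probe set 267028_at rested on a gap of 0.04 (0.28, SE 0.119, adjusted p = 0.259). In 251553_at wild-type replicate 3 stood low at 5.17, beside 6.08 and 5.84 on the other wild-type arrays and 6.01 to 6.10 on the mutant arrays (0.34, SE 0.221, adjusted p = 0.463).

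The other members with a gene name or locus did not pass. Apart from TTG2 they fall outside the rule for named genes and are given, whatever their values, because a source names them. ZAP1 (WRKY1, AT2G04880), a group I factor with a pair of WRKY domains, read 7.58, 7.64 and 7.77 in wild type and 7.92, 7.65 and 7.74 in anac089-2 (log2 difference 0.11, SE 0.112, adjusted p = 0.667). WRKY20 (AT4G26640), also of group I, had means of 6.71 ± 0.191 and 6.50 ± 0.115 (SD, n = 3 each) with a difference of -0.21 (limma adjusted p = 0.431). Both gave clear signal and their groups overlapped.

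WRKY53 (AT4G23810), a group III factor of leaf senescence, stood at 3.26 in wild type and 3.25 in anac089-2. WRKY42 (AT4G04450), a group IIb factor of phosphate supply, stood at 3.16 and 3.21, and WRKY47 (AT4G01720), of the same group, at 3.33 and 3.31. TTG2 (WRKY44, AT2G37260), which acts in trichomes and in the seed coat, stood at 2.71 and 2.76, and AT5G46310 at 2.79 and 3.06. These 5 had levels below the median of all probe sets in both groups, where 28 of 11373 probe sets passed, and their differences lay between -0.02 and 0.27. The group IIb members WRKY6, WRKY42 and WRKY47 thus included 1 that fell and 2 below that median.

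The probe sets that passed were all among those of strong signal. Of the 15 WRKY probe sets with a log2 level of 6 or more, 3 fell, 0 rose and 12 did not pass, and their median log2 difference was -0.46. Of all 6842 probe sets in that range 12.6% passed, 5.70% lower and 6.90% higher, and their median difference was 0.10. Of the 15, 11 had lower means in anac089-2 and 4 higher, whereas 39.6% of all probe sets at such levels were lower. The groups did not overlap for 7 that were lower and 2 that were higher, where the shares over all probe sets of that range were 17.1% lower and 27.7% higher. Over all 62 WRKY probe sets the groups did not overlap for 8 lower and 7 higher, beside 8.23% lower, 15.8% higher and 24.0% in either direction among all probe sets. The median difference over the 62 was -0.05, beside 0.04 over all probe sets, and the interquartile range was -0.24 to 0.05. With genes of a family not independent of each other, these medians and shares are descriptions of the list.

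**Figure D3:**
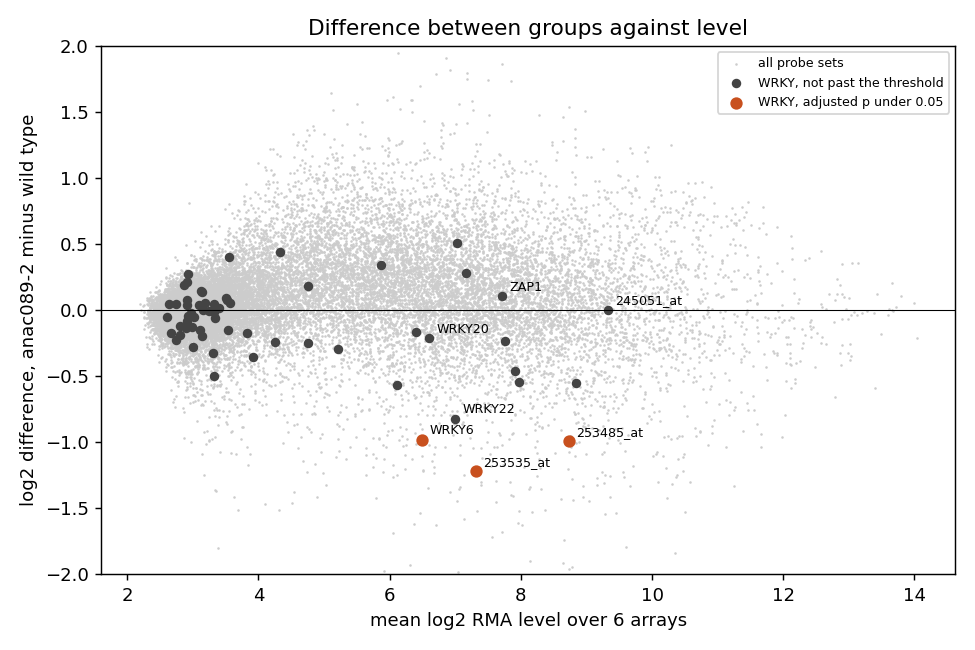
Log2 difference, anac089-2 minus wild type (vertical axis, shown from -2 to 2), against the mean log2 RMA level over 6 arrays (horizontal axis). Small grey points are all probe sets, dark points are WRKY probe sets that did not pass and orange points the 3 that did. WRKY probe sets above a level of 6 lie mostly below the zero line, with a median of -0.46, while those below the median level have a median of -0.02. The plot leaves out 16 probe sets beyond its range.

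For 3 other families of transcription factors, taken by title words, the same values were read at levels of 6 or more. Of 19 probe sets titled AP2 domain 6 fell and 1 rose, with a median log2 difference of -0.29. Of 32 titled myb family 2 fell and 1 rose, with a median of -0.06. Of 23 titled bZIP family none passed in limma, with a median of 0.10. An unadjusted p under 0.05 was found for 10 of 15 WRKY, 14 of 19 AP2 domain, 14 of 32 myb and 8 of 23 bZIP probe sets, and for 39.4% of all probe sets at such levels. The difference between these families and the WRKY family was not tested.

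Within anac089-2, replicate 1 was the lowest of the 3 arrays for 9 of the 15 WRKY probe sets of strong signal, replicate 2 for 2 and replicate 3 for 4. Among all probe sets in that range replicate 1 was the lowest for 2007 of 6842. Within wild type, replicate 3 was the highest array for 8 of the 15, though over all probe sets of that range it was the highest for 1041 and the lowest for 4309. All 3 falls still passed when wild-type replicate 3 was left out. Without that array 253535_at had -1.18 (adjusted p = 0.0170), 253485_at -0.89 (adjusted p = 0.0282) and WRKY6 -0.84 (adjusted p = 0.0138). Without mutant replicate 1 no WRKY probe set passed in limma, and 9 had an unadjusted p under 0.05. The share over all probe sets at that unadjusted level is not given for that fit. Adjusted p-values of the 3 were then 0.0712, 0.0970 and 0.0940 in the same order, and without mutant replicate 3 they were 0.0839, 0.109 and 0.0979. Without wild-type replicate 2 the adjusted p was 0.0672 for 253485_at and 0.0513 for WRKY6, and without wild-type replicate 1 it was 0.0566 for 253485_at. The differences themselves stayed between -0.84 and -1.37 whichever array was left out. Over all probe sets the count of calls, 1120 with all arrays, was 6 without mutant replicate 1 and 4 without mutant replicate 3. It was 521 and 301 without wild-type replicates 1 and 2.

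**Figure D4:**
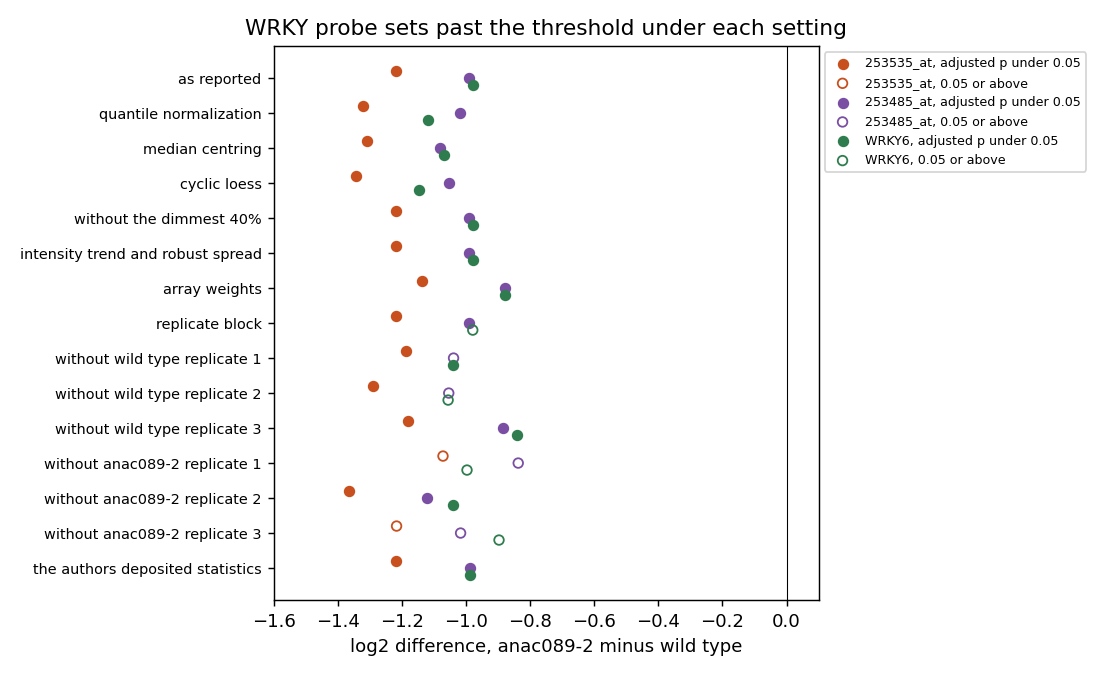
Log2 difference, anac089-2 minus wild type (horizontal axis), of the 3 WRKY probe sets that passed, under the reported setting and each of 14 alternatives (rows). Filled points have an adjusted p under 0.05 and open points do not. No point lies above -0.83, and all 3 are open without mutant replicate 1 or without mutant replicate 3.

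On wild-type replicate 3 a few dim WRKY probe sets stood apart upward. The probe set 256364_at read 4.45 there, beside 3.06 and 3.21 on the other wild-type arrays and a mutant mean of 3.08. Likewise 254347_at read 4.14 beside 3.08 and 3.18, and 250666_at 3.95 beside 2.74 and 2.74. These 3 were picked after their values were seen, for a gap of over 0.7. Their wild-type SDs were 0.763, 0.585 and 0.699, and none of their differences passed (adjusted p = 0.494, 0.579 and 0.701). The share of all probe sets with such a gap is not given here. Below the median of all probe sets, replicate 3 was the highest wild-type array for 12 of 41 WRKY probe sets and for 3445 of all 11373. Array weights estimated in limma were 0.21 for wild-type replicate 3 and 0.88 to 1.8 for the other arrays. The median SD of the 62 was 0.174 in wild type and 0.104 in anac089-2, beside 0.180 and 0.108 over all probe sets.

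Genes that textbooks place above, beside or below WRKY factors changed in few cases. Of 163 such genes in 7 lists, 75 were measured under a name found here, of which 2 rose, 2 fell and 71 did not pass, close to the 4.92% of all probe sets. The median log2 difference was 0.05 over the 75. The 4 that passed lost their calls without mutant replicate 1 and without mutant replicate 3. With each array left out in turn MPK1 and TCH4 passed in 4 of 6 fits, and ICS1 and CYP83B1 in 1 of 6. In the MAP kinase cascade, 1 of 29 measured members rose and 28 did not pass. MPK1, a group C MAP kinase, read 5.39, 5.56 and 5.61 in wild type and 6.73, 6.42 and 6.40 in anac089-2, a rise of 2.00-fold (log2 difference 1.00, SE 0.127, limma adjusted p = 0.0120). All mutant arrays were above all wild-type arrays by at least 0.79.

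The kinases placed directly above WRKY22 were looked at for that reason, after the values were known, and none passed. MPK3 stood at 9.14 in wild type and 9.08 in anac089-2 (log2 difference -0.05) and MPK6 at 8.76 and 8.61 (-0.14). Their activators MKK4 and MKK5 had 0.31 and 0.28. Without wild-type replicate 3, which read 5.96 for MKK4 beside 7.04 and 6.84, these were -0.02 and 0.12. Adjusted p-values of these 4 lay between 0.382 and 0.857.

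Of salicylate and defence genes, 1 of 9 fell and 8 did not pass. ICS1, the isochorismate synthase of salicylate synthesis, read 7.10, 6.62 and 6.42 in wild type and 5.70, 5.98 and 5.38 in anac089-2 (log2 difference -1.03, SE 0.215, adjusted p = 0.0427). EDS5 of this list, named outside the rule, had -0.58 (limma adjusted p = 0.288). It passed after cyclic loess (-0.78, 0.0308) and without wild-type replicate 3 (-0.89, 0.0143), the only such fit of 6. That array read 4.32, beside 5.37 and 5.17 on the other wild-type arrays. Of calcium and touch signals, 1 of 10 fell. TCH4, a touch-induced xyloglucan-modifying enzyme of the cell wall, read 8.04, 7.72 and 7.99 against 6.92, 6.78 and 6.91 (-1.05, SE 0.118, adjusted p = 0.0117). The groups were apart for ICS1 and TCH4.

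Of camalexin and indole metabolism, 1 of 8 rose. CYP83B1, a cytochrome P450 of indole glucosinolate synthesis, read 4.82, 4.81 and 4.89 in wild type and 5.31, 5.27 and 5.42 in anac089-2 (log2 difference 0.49, SE 0.093, adjusted p = 0.0311). This rise did not pass under any of the other scalings, with 0.26 after quantile normalization (adjusted p = 0.389), 0.28 after cyclic loess (0.348) and 0.40 after median centring (0.0797). CYP71B15, the last step of camalexin synthesis and a target of WRKY33 in leaves, was also looked at after its values were known and stood at 2.88 and 2.79, below the median of all probe sets.

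In the remaining lists no member passed limma's adjusted threshold in the reported fit or in the authors' deposited table. The counts at an unadjusted p under 0.05 that follow stand beside 19.3% of all probe sets. Of 7 jasmonate genes 1 had an unadjusted p under 0.05. The largest differences were those of MYC3 (0.56, adjusted p = 0.125), a bHLH factor, and VSP2 (-0.33, adjusted p = 0.548), whose probe set can share probes with a similar gene. VSP2 read 3.45 on wild-type replicate 3 and 2.42 and 2.55 on the other wild-type arrays, and without replicate 3 its difference was -0.01. Of 7 ABA-linked transcription factors 3 had an unadjusted p under 0.05, with ABI4 at 0.72 (adjusted p = 0.0622) and DREB2A at -0.53 (adjusted p = 0.116) the largest. ABI4 passed in limma after median centring (adjusted p = 0.0491), and had 0.0505 after quantile normalization and 0.0504 after cyclic loess. The third was ABI3, named outside the rule, at 0.50 (adjusted p = 0.106). Of 5 VQ and other WRKY-binding proteins 1 had an unadjusted p under 0.05, with CAM1 (0.38) and IKU1 (0.30) the largest. VQ motif proteins bind WRKY factors and tune their action. Of 23 probe sets titled so, a group taken from title words after the files were opened and holding IKU1 too, 0 passed in either table and 3 had an unadjusted p under 0.05, and 267069_at was 1 of these 3 (-0.56, adjusted p = 0.161). AT1G80450, not among the 3, also had -0.56, but read 4.97 on wild-type replicate 3 beside 3.65 and 4.04. Without that array AT1G80450 had -0.18 and 267069_at -0.40.

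**Figure D5:**
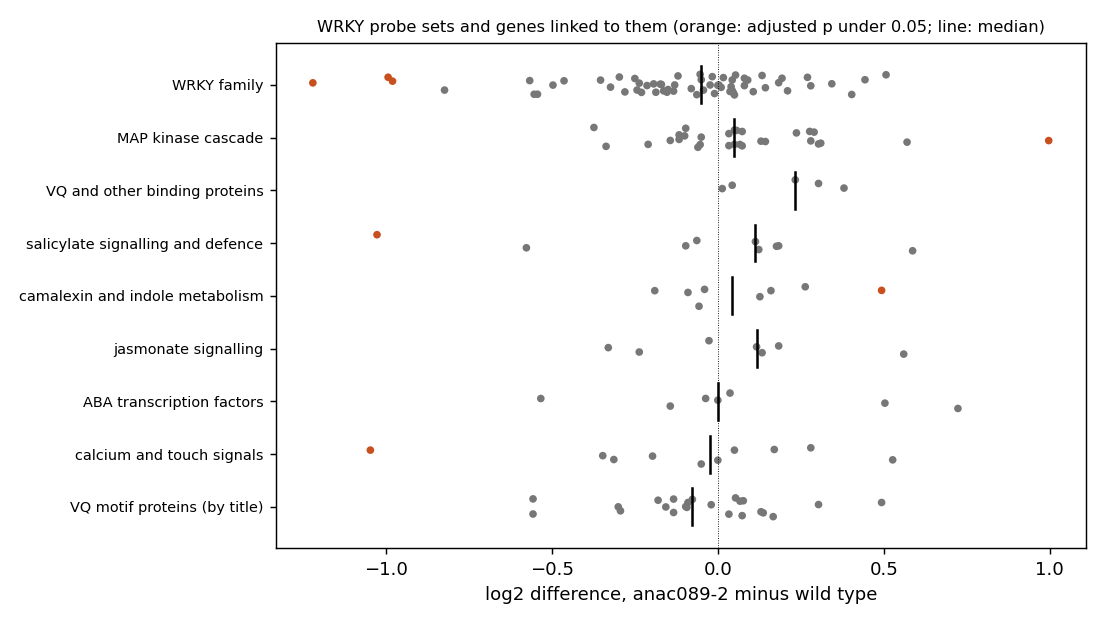
Log2 difference, anac089-2 minus wild type (horizontal axis), of the 62 WRKY probe sets and of genes linked to them, by list (rows). Each point is a probe set, orange where the adjusted p is under 0.05, and each vertical line is the median of its list. The list medians lie between -0.08 and 0.23, and 7 points in all are orange.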

How the data were processed

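Total RNA of 3 wild-type and 3 anac089-2 seed samples was labelled with biotin and hybridised to ATH1 arrays, per the labels. Log2 expression values of each probe set were deposited by the authors, who used RMA and limma, per the submitters' processing notes. No version or setting is stated there. The authors' deposited comparison table holds a log2 ratio, a fold change with a sign, a p-value and an FDR per probe set, per the file headers. In 5 of its p-value and FDR cells the decimal point was missing, and the value was taken as 1. Its 6 columns of per-array values were not used. The largest gap between its log2 ratios and the differences computed here was 0.0133.

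After 64 control probe sets were set aside, 22746 were tested with limma 3.58.1 (R 4.3.3, lmFit and eBayes, no block, no filter), with Benjamini-Hochberg adjustment over all of them and a threshold of 0.05. The number of arrays limits the precision. With 3 arrays a group the smallest two-sided p of an exact permutation test is 0.1, so none was run. Members and gene lists were chosen with earlier results of these data known. The rule for naming members took those past the threshold, the 10 largest differences that did not pass at or above the median level, the 5 highest levels, and 12 numbered genes known in ABA or seed work, of which WRKY6 and TTG2 were paired with a probe set. Of each linked list, up to 4 members past the threshold were named, otherwise the 2 largest. List genes were matched by platform symbol, RefSeq symbol or synonym, or title, and 5 matches to another gene of the same symbol were set aside. Members with a gene name or locus were described in any case, and other genes named outside these rules are said to be so in the text. Alternatives were other scalings, a filter on dim probe sets, weights per array, a robust spread with an intensity trend, a block by replicate number, stricter thresholds, the authors' statistics and leaving out each array. In simulated data for this comparison over 22746 probe sets, 4 of 67, 32 of 67 and 60 of 66 probe sets changed by 0.5, 1 and 2 on the log2 scale were recovered. No other probe set was changed there, and the noise was normal and independent between probe sets. These shares therefore need not hold for the real arrays, where 1120 probe sets passed. Plots were drawn with matplotlib 3.10.9.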

Additional observations from a re-analysis of the deposited data

How the results depend on the processing

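The count of 3 WRKY probe sets, all lower in anac089-2, was 5 after a second quantile normalization, cyclic loess or array weights. It was 0 at an adjusted p under 0.01 and 1 where a log2 difference of 1 or more was asked for. No count over all probe sets was made at these stricter thresholds, so these values have no background. With 1 array left out the WRKY count ranged from 0 to 4 (0 without mutant replicate 1 or 3, 1 without wild-type replicate 2). Without mutant replicate 1 or 3, limma gave the 3 adjusted p-values of 0.0712 to 0.109. In either case 9 WRKY probe sets had an unadjusted p under 0.05, beside 12 with all arrays. The share over all probe sets is given only with all arrays, 19.3%, so the 9 have no background here. No setting run called a higher WRKY probe set. Calls were added for WRKY22, 261892_at, 253603_at, 265718_at and, without wild-type replicate 3, 260528_at (adjusted p = 0.0478). WRKY22 was added by quantile normalization, cyclic loess, median centring, leaving out the dimmest 40% and leaving out mutant replicate 2. Of 14 alternatives, 253535_at lost its call under 2, 253485_at under 4 and WRKY6 under 4. The count of calls among all 22746 probe sets, 1120 as reported, was 1701 (quantile), 1784 (cyclic loess), 2070 (array weights) and 494 (replicate block), and ranged from 4 to 1667 with 1 array left out. The median WRKY difference of -0.05 was -0.14 with median centring and -0.19 without the dimmest 40%, which kept 28 of the 62, and -0.07 to -0.03 with 1 array left out. The median over all probe sets moved too, from 0.04 as reported to -0.05 with median centring and 0.12 without the dimmest 40%. Median centring thus shifted the WRKY probe sets together with all others. The 4 linked genes were 0 to 5 with 1 array left out. The cause was not tested. The replicate block left 2 WRKY calls, with an adjusted p of 0.0527 for WRKY6. Arrays of the same number did not deviate together, with correlations of their residuals of -0.089, -0.063 and -0.135, so the numbers were not taken as pairs.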
